A study of Bos grunniens x Bos taurus and Bos grunniens with 6 samples.

Results

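The synaptonemal complex and chromosome axis genes described here were taken from the testis transcriptome as the genes whose symbol, ignoring case, was SYCP1, SYCP2, SYCP3, SYCE1, SYCE2, SYCE3, TEX12, HORMAD1, HORMAD2 or SYCP2L. Of these 10 symbols, 9 were matched among the 18918 genes, each on a single gene, and 8 were among the 15042 genes abundant enough to be tested. SYCE3 was not analysed here.

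The study compared testis RNA of cattle-yak, the F1 hybrid of a Jersey cattle sire and a Gannan yak dam, with that of Gannan yak, to find the expression differences that go with the sterility of the hybrid male. All animals were males of 4 years, with 3 per group and 1 library per animal, named C1, C2 and C3 for cattle-yak and Y1, Y2 and Y3 for yak. The cattle-yak came from Xiahe County and the yak from Linxia County, and the study's methods give castration for cattle-yak and euthanasia for yak, while the sample labels give castration throughout. County and collection coincided with the group, so their effects and that of hybrid origin cannot be told apart.

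During meiotic prophase each pair of sister chromatids is organised along a protein axis, and the axes of homologous chromosomes are then zipped together by the synaptonemal complex. SYCP2 and SYCP3 build the axis, called the lateral element once synapsed, HORMAD1 and HORMAD2 mark axes that are not yet synapsed, SYCP1 spans the gap as the transverse filament, and SYCE1, SYCE2, SYCE3 and TEX12 form the central element. In the testis these proteins belong to spermatocytes, and male mice that lack most of them are sterile with spermatocytes arrested in prophase.

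Levels are FPKM, fragments per kilobase of gene and of sequencing depth, so that levels of different genes can be set side by side. Between 11175102 and 11834989 fragments lay behind the values of each cattle-yak library, and between 12991643 and 13136131 behind those of each yak library. A single fragment on 1 kb was thus 0.0761 to 0.0895 FPKM. The 8 synaptonemal complex and axis genes tested rested on 230 (TEX12 in C2) to 4204 (HORMAD2 in Y2) fragments in a library. The comparison was fitted with limma on log2 (FPKM + 1) across all genes tested, and a gene was called higher or lower at a Benjamini-Hochberg adjusted p under 0.05 together with a log2 (foldchange) beyond 1 in size. Positive values are higher in cattle-yak.

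The genes did not change as a unit in the deposited values, although all 8 were called lower when the libraries were centred on Sertoli genes, as were 73.5% of all genes. Of the 8 tested, 1 (SYCP3) was called higher in cattle-yak, beside 33.4% of all genes tested, and 2 (HORMAD2 and SYCE1) were called lower, beside 20.8% of all genes. With median-of-ratios scaling 0 of the 8 were higher in limma (0 also at an unadjusted p under 0.05) and 4 lower, beside 2660 higher and 4176 lower of all genes. In the deposited values, adjusted p from limma alone was under 0.05 for 6 of the 8, 2 higher and 4 lower, against 81.9% of all genes. The values of the groups did not overlap for the same 6, against 84.1% of all genes, so that neither count stood above the background. The median log2 (foldchange) of the 8 genes was −0.20, while that of all genes tested was 0.51. The samples were whole testis, so fewer spermatocytes and less RNA per spermatocyte cannot be told apart.

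**Figure D1:**
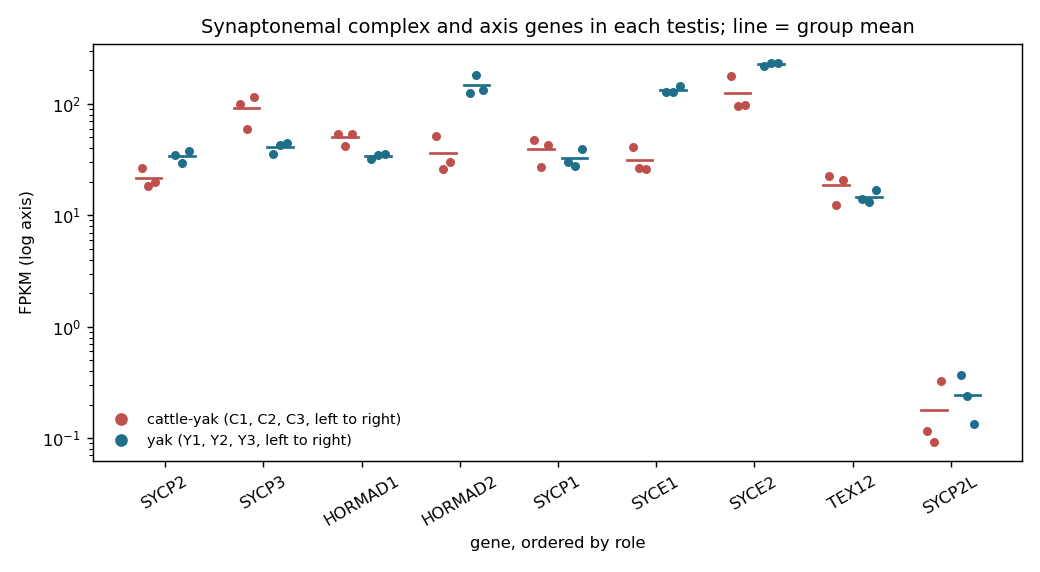
FPKM of the 9 matched genes in each animal on a log axis, with points for C1 to C3 and Y1 to Y3 from left to right and a line at each group mean. HORMAD2 (25.9 to 51.7 FPKM in cattle-yak, 125 to 183 in yak) and SYCE1 (25.8 to 40.9 and 128 to 145) are separated most widely, and SYCP3, unscaled like the others, is the reverse (59.4 to 114 and 35.2 to 44.6).

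Of the axis components, SYCP3 was called higher in the deposited values, while SYCP2 was lower but short of the fold threshold. SYCP3 was not called with median-of-ratios scaling and was lower when centred on Sertoli genes. The study cites earlier work that found SYCP3 expression reduced in cattle-yak testis, and the difference from the deposited values was not examined here. SYCP2 was at −0.07 when centred on germ cell genes, not past the adjusted p. SYCP3 (ENSBGRG00000000767), the coiled-coil protein that makes up the core fibres of the lateral element, stood at 99.4 FPKM for C1, 59.4 for C2 and 114 for C3, compared with 35.2 for Y1, 42.3 for Y2 and 44.6 for Y3. Each cattle-yak value was above each yak value, with C2 nearest to the yak range. The cattle-yak mean was 91.0 ± 28.3 FPKM and the yak mean 40.7 ± 4.89 (SD, n = 3), a 2.24-fold difference. Its log2 (foldchange) was 1.10 (standard error 0.23, 95% interval 0.57 to 1.62, adjusted p = 0.0021 from limma). This was close to the fold threshold, and SYCP3 was no longer called without C3 (0.91) or without Y1 (0.998), though still higher in both, nor with median-of-ratios scaling (0.49, adjusted p = 0.0926 from limma).

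SYCP2 (ENSBGRG00000024249), which binds SYCP3 and joins it to the rest of the axis, had 26.3 (C1), 18.3 (C2) and 20.1 (C3) FPKM, with the yak values at 34.4 (Y1), 29.5 (Y2) and 38.0 (Y3). Here the cattle-yak values were the low ones, and the gap between C1 and Y2 was narrow. The means were 21.6 ± 4.23 and 34.0 ± 4.28 FPKM (SD, n = 3), with a log2 (foldchange) of −0.64 (standard error 0.16, 95% interval −1.005 to −0.28, adjusted p = 0.0052 from limma), which was past the adjusted p but short of the fold threshold. In each yak library SYCP2 stood at 0.976, 0.697 and 0.853 of the SYCP3 level in Y1, Y2 and Y3. In cattle-yak it stood at 0.265, 0.308 and 0.176 in C1, C2 and C3, below the range of the yak in every animal.

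In the HORMA domain pair, HORMAD2 was called lower in the deposited values and HORMAD1 was higher but short of the fold threshold. HORMAD1 was called higher when centred on germ cell genes (1.10), but was not higher with median-of-ratios scaling or when centred on Sertoli genes. HORMAD1 (ENSBGRG00000001109), which recruits the break machinery to unsynapsed axes, measured 54.0 FPKM (C1), 42.1 (C2) and 54.2 (C3) in the hybrids, whereas Y1 gave 32.3, Y2 34.7 and Y3 35.2. Every cattle-yak value was above every yak value, and the yak values were close together. The means were 50.1 ± 6.92 and 34.1 ± 1.56 FPKM (SD, n = 3), with a log2 (foldchange) of 0.53 (standard error 0.12, 95% interval 0.25 to 0.82, adjusted p = 0.0035 from limma). This was below the fold threshold and differed from the median of all genes by only 0.02.

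HORMAD2 (ENSBGRG00000023195), which is needed for the accumulation of the checkpoint kinase ATR on unsynapsed chromosomes, stood at 51.7 FPKM for C1, 25.9 for C2 and 30.4 for C3, compared with 125 for Y1, 183 for Y2 and 133 for Y3. The groups were far apart, with C1 highest among the cattle-yak and Y2 highest of all. The means were 36.0 ± 13.8 and 147 ± 31.5 FPKM (SD, n = 3), a level 4.09-fold higher in yak. The log2 (foldchange) was −2.04 (standard error 0.25, 95% interval −2.63 to −1.46, adjusted p = 9.9e-05 from limma). The HORMAD2 level divided by the HORMAD1 level was 0.957 for C1, 0.615 for C2 and 0.561 for C3, whereas Y1 had 3.88, Y2 had 5.28 and Y3 had 3.77. HORMAD1 was therefore the more abundant of the pair in every cattle-yak, and HORMAD2 in every yak.

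SYCP1 (ENSBGRG00000006966), the transverse filament protein whose head-to-head contacts hold the axes together, had 47.7 (C1), 26.9 (C2) and 42.5 (C3) FPKM, with the yak values at 30.3 (Y1), 27.7 (Y2) and 39.3 (Y3). The groups overlapped, since C2 was the lowest of all 6 animals while C1 and C3 were the highest. The means were 39.1 ± 10.8 and 32.4 ± 6.09 FPKM (SD, n = 3), and the log2 (foldchange) of 0.24 (standard error 0.22, 95% interval −0.27 to 0.75) missed the threshold (limma adjusted p = 0.337). Without C2 it was 0.48 (adjusted p = 0.0347 from limma), and without C1 it was 0.077 (adjusted p = 0.754).

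The central element genes ranged from the widest difference among the 8 to an overlap. SYCE1 (ENSBGRG00000018058), which binds SYCP1 and starts the central element, measured 40.9 FPKM (C1), 26.6 (C2) and 25.8 (C3) in the hybrids, whereas Y1 gave 129, Y2 128 and Y3 145. All cattle-yak values were far below the yak range. The means were 31.1 ± 8.52 and 134 ± 9.61 FPKM (SD, n = 3), a level 4.30-fold higher in yak, and the log2 (foldchange) was −2.10 (standard error 0.17, 95% interval −2.50 to −1.70, adjusted p = 9.5e-06 from limma).

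SYCE2 (ENSBGRG00000006880), which assembles with TEX12 into the fibres along which the central element extends, stood at 178 FPKM for C1, 95.9 for C2 and 97.2 for C3, compared with 220.3 for Y1, 233 for Y2 and 232 for Y3. C1 lay between the other cattle-yak and the yak, which were nearly equal to each other. The means were 124 ± 47.2 and 228 ± 7.06 FPKM (SD, n = 3), and the log2 (foldchange) was −0.94 (standard error 0.22, 95% interval −1.45 to −0.43, adjusted p = 0.0042 from limma), short of the fold threshold. Without C1 it was −1.23 and with median-of-ratios scaling −1.56, and SYCE2 was called lower in both. Centred on germ cell genes it was −0.37 (adjusted p = 0.102 from limma). The SYCE1 level was 0.230, 0.277 and 0.265 of the SYCE2 level in C1, C2 and C3, and 0.585, 0.548 and 0.623 of it in Y1, Y2 and Y3, so SYCE1 was lower in cattle-yak also relative to SYCE2.

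TEX12 (ENSBGRG00000008586), the partner of SYCE2 in those fibres, did not follow it. It had 22.7 (C1), 12.4 (C2) and 20.6 (C3) FPKM, with the yak values at 14.1 (Y1), 13.1 (Y2) and 16.9 (Y3). As with SYCP1, C2 was the lowest animal, C1 and C3 were the highest, and the groups overlapped. The log2 (foldchange) was 0.28 (standard error 0.22, 95% interval −0.22 to 0.78, adjusted p = 0.258 from limma), and it was 0.53 without C2 (adjusted p = 0.0129) and 0.12 without C1 (adjusted p = 0.618). The SYCP1 level was 2.10, 2.17 and 2.06 times the TEX12 level in C1, C2 and C3, and 2.15, 2.11 and 2.32 times in Y1, Y2 and Y3, with overlapping groups (exact permutation test over animals, two-sided, p = 0.4). These pairs of genes, like the other pairs above, were chosen after their values were seen.

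SYCP2L (ENSBGRG00000013775), a paralog of SYCP2 known from oocytes, was near the limit of detection. It measured 0.116 FPKM (C1), 0.0925 (C2) and 0.327 (C3) in the hybrids, whereas Y1 gave 0.367, Y2 0.237 and Y3 0.133, which were 4, 3, 11, 14, 9 and 5 fragments. The groups overlapped, and with a mean under 0.5 FPKM it was not tested.

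The order of the levels within a group differed too. In yak, SYCE2 was the most abundant in every animal, followed by HORMAD2 (147 ± 31.5 FPKM) and SYCE1 (134 ± 9.61), which changed places among animals. SYCP3 (40.7 ± 4.89) then stood above HORMAD1 in 3 of 3 yak. HORMAD1, SYCP2 and SYCP1 (34.1 ± 1.56, 34.0 ± 4.28 and 32.4 ± 6.09) did not differ beyond their spread, and TEX12 was the lowest of the 8 genes. In cattle-yak, SYCE2 (124 ± 47.2 FPKM) and SYCP3 (91.0 ± 28.3) led and changed places, with SYCP3 higher in C3 alone. HORMAD1 (50.1 ± 6.92) came next in all 3 animals, and SYCP1, HORMAD2 and SYCE1 (39.1 ± 10.8, 36.0 ± 13.8 and 31.1 ± 8.52) lay within each other's spread. The 9 genes summed to 521, 308 and 405 FPKM in C1, C2 and C3, whereas the sums of Y1, Y2 and Y3 were 621, 691 and 684.

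On the log2 scale the SD was wider in cattle-yak for 8 of 8 genes, as in SYCE2 with 0.51 against 0.04, and for 54.0% of all genes tested. In FPKM it was wider in cattle-yak for 5 of the 8, with HORMAD2, SYCE1 and SYCP2 the exceptions, and the difference in spread was not tested. C2 had the lowest cattle-yak level for 7 of the 8, the exception being SYCE1, which was lowest in C3. C1 was highest for 6, while SYCP3 and HORMAD1 were highest in C3. The shares of all genes with these orders were not computed, so the orders are not read as particular to the 8 genes.

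Because the libraries were not scaled to each other beyond sequencing depth, each gene was also expressed as a ratio to SYCP3 of the same library. Such a ratio hardly depends on scaling. The log2 ratio of HORMAD2 to SYCP3 was −0.93 for C1, −1.17 for C2 and −1.88 for C3, whereas Y1 had 1.80, Y2 had 2.09 and Y3 had 1.55. That of SYCE1 was −1.26 for C1, −1.13 for C2 and −2.10 for C3, whereas Y1 had 1.84, Y2 had 1.57 and Y3 had 1.68. Both genes were thus below SYCP3 in every cattle-yak and above it in every yak.

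The group difference in the log2 ratio to SYCP3 was −3.19 for SYCE1, −3.14 for HORMAD2, −2.04 for SYCE2, −1.74 for SYCP2, −0.86 for SYCP1, −0.81 for TEX12 and −0.56 for HORMAD1. SYCP3 had the highest log2 (foldchange) of the 8 genes and separated the groups itself. Dividing by it thus fixed the sign of these differences and favoured separation, as for SYCP1 and TEX12, whose own levels overlapped. Only the size of the differences is read here. The groups did not overlap for any of the 7 ratios, and each had an exact permutation p of 0.1 (two-sided, also after Benjamini-Hochberg adjustment over the 7), which is the smallest that 3 against 3 animals can give. Of all other genes tested, 56.4% did not overlap in their ratio to SYCP3, 6663 of them lower and 1819 higher in cattle-yak. The difference for the median gene was −0.58. The ratios of HORMAD1, SYCP1 and TEX12 were near this value, and those of SYCE1, HORMAD2, SYCE2 and SYCP2 were further below it.

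**Figure D2:**
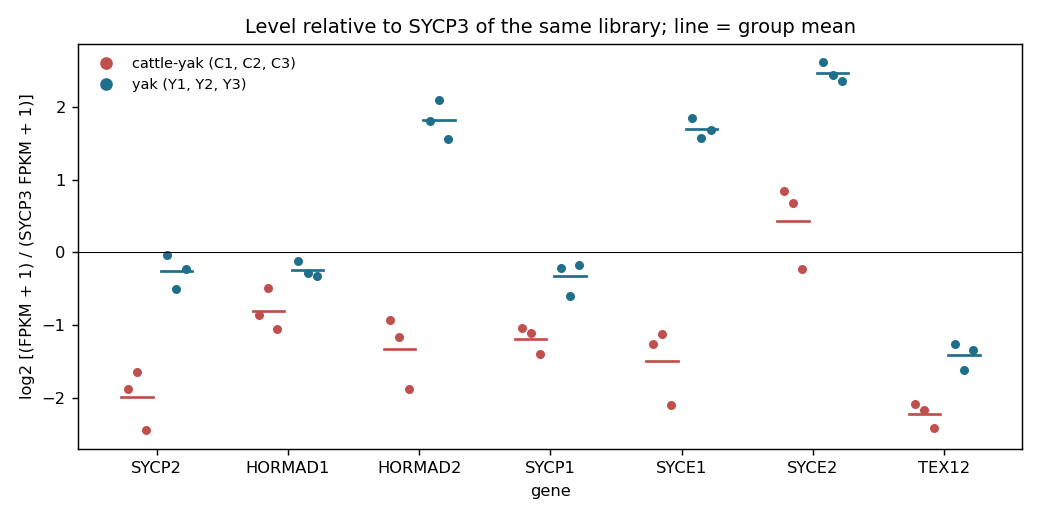
Log2 ratio of 7 genes to SYCP3 within each library, on FPKM + 1, with points for the 3 animals of each group and a line at the group mean; 0 is the SYCP3 level. The groups do not overlap for any of the 7, with differences from −0.56 (HORMAD1) to −3.19 (SYCE1).

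Scaling between libraries set the direction for 4 of the 8 genes. With median-of-ratios scaling the median of all genes moved from 0.51 to 0.01 and the calls over all genes from 5023 higher and 3136 lower to 2660 and 4176. SYCP3 was then at 0.49 and not called (adjusted p = 0.0926 from limma), HORMAD1 (−0.07), SYCP1 (−0.36) and TEX12 (−0.30) changed sign, and SYCP2 (−1.24) and SYCE2 (−1.56) were called lower. Centred on the Sertoli genes, all 8 were called lower, SYCP3 with −1.12, beside 11051 lower and 30 higher of all genes. Centred on general germ cell genes, SYCP3 (1.67) and HORMAD1 (1.10) were called higher, beside 7872 higher and 2203 lower of all genes. SYCP2 (−0.07) and SYCE2 (−0.37) were then no longer past the adjusted p, and SYCP1 (0.81) and TEX12 (0.85) were. HORMAD2 (−1.47 to −4.26) and SYCE1 (−1.53 to −4.32) were called lower under each of these scalings. The study's own test, made with DESeq, reported more genes lower than higher in cattle-yak. That was also the balance with median-of-ratios scaling and Sertoli centring, but not in the deposited values or with germ cell centring.

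The distance of each gene from the median of all genes is by construction the same in the deposited values and after either centring, which moves all genes alike. By that distance, SYCP3 was at 0.58, HORMAD1 at 0.02, TEX12 at −0.23 and SYCP1 at −0.27. SYCP2 was at −1.15, SYCE2 at −1.45, HORMAD2 at −2.55 and SYCE1 at −2.61. With median-of-ratios scaling the genes stood in the same order, from 0.47 for SYCP3 to −2.72 for SYCE1 relative to the median.

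**Figure D3:**
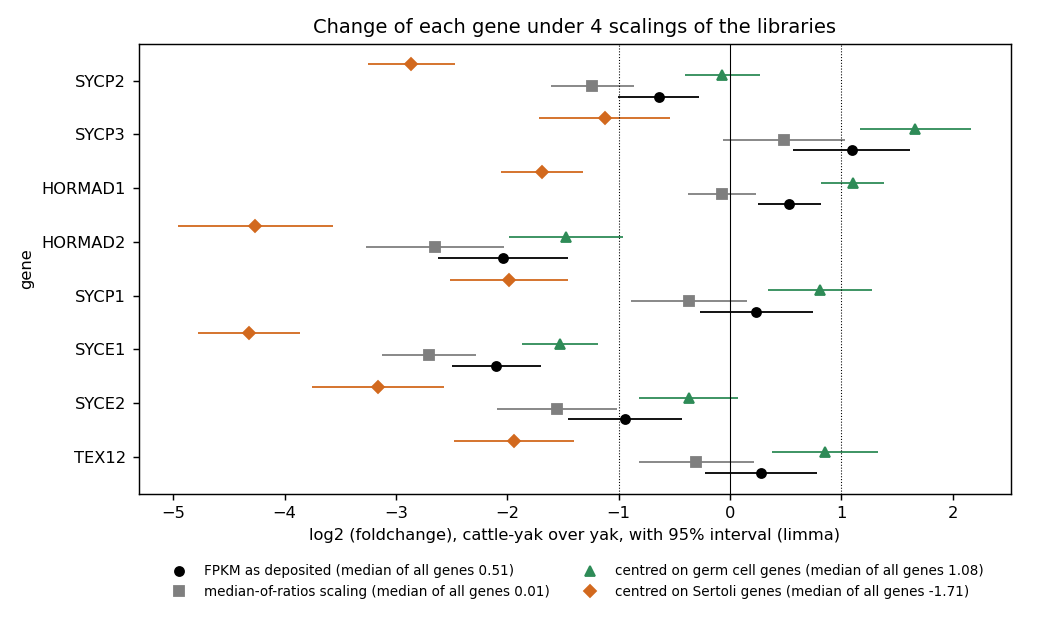
Log2 (foldchange) of cattle-yak over yak with its 95% interval from limma for the 8 genes tested, as deposited and under 3 other scalings of the libraries, with dotted lines at −1 and 1. SYCE1 and HORMAD2 lie below −1 in all 4, whereas SYCP3 runs from −1.12 to 1.67.

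Genes that work with the axis and the synaptonemal complex went both ways as well in the deposited values, but mostly lower with median-of-ratios scaling. Of 22 listed, 19 were matched and tested, and 1 was called higher, 7 lower and 11 neither, beside 33.4% higher and 20.8% lower of all genes, with a median log2 (foldchange) of −0.37 beside 0.51. With median-of-ratios scaling 1 was called higher and 9 lower, beside 17.7% and 27.8% of all genes, and at an unadjusted p under 0.05 in limma there were 1 higher and 17 lower, beside 37.7% and 40.5%. Centred on germ cell genes 2 were called higher and 3 lower, beside 52.3% and 14.6% of all genes. At an unadjusted p under 0.05 in limma, 9 were then higher and 8 lower, beside 66.6% and 21.4%. In the deposited values that count was 2 higher and 9 lower, beside 53.3% and 29.7%. Centred on Sertoli genes 0 were higher in limma (0 also at an unadjusted p under 0.05) and 18 lower, beside 0.199% and 73.5%. RAD21L1, MAJIN and BRME1 were not analysed here.

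The axis cohesins, which hold sister chromatids together along the axis, included no called gene in limma, and at an unadjusted p under 0.05 there were 0 higher and 1 lower of 3, beside 53.3% and 29.7% of all genes. SMC1B had 42.0, 27.8 and 40.8 FPKM in C1, C2 and C3 and 40.7, 39.6 and 42.9 in Y1, Y2 and Y3, and like SYCP1 was lowest in C2. REC8 had 4.22, 4.75 and 5.51 FPKM against 4.25, 4.20 and 4.06. The lone gene past the adjusted p was STAG3, at −0.92, and it was called lower with median-of-ratios scaling (−1.53) and in the absence of C1 (−1.06). By its own test the study listed STAG3 as significantly downregulated in cattle-yak. Centred on germ cell genes STAG3 was at −0.35, with 2 cohesins higher and 1 lower at an unadjusted p under 0.05 in limma, beside 66.6% and 21.4% of all genes. All 3 were lower centred on Sertoli genes, as were 89.2% of all genes, and with median-of-ratios scaling, as were 40.5%.

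The break machinery, which is anchored on the axis and makes the DNA breaks that start recombination, split within a single complex in the deposited values. MEI4 stood at 11.6 FPKM for C1, 9.14 for C2 and 17.3 for C3, compared with 2.19 for Y1, 2.996 for Y2 and 2.42 for Y3, and was called higher (log2 (foldchange) 1.92, adjusted p = 7.0e-05 from limma). REC114, its direct partner, had 14.2, 13.2 and 13.9 FPKM in cattle-yak and 38.6, 38.2 and 41.5 in yak, and was called lower (−1.45, adjusted p = 3.2e-06 from limma). CCDC36, also named IHO1, which binds HORMAD1, had 14.3, 5.24 and 7.99 FPKM in C1, C2 and C3 and 29.3, 24.1 and 28.3 in Y1, Y2 and Y3, and was called lower (−1.57, adjusted p = 0.0011 from limma). These were 1 called higher and 2 called lower of the 7 genes listed, beside 33.4% and 20.8% of all genes. The groups did not overlap for any of these 3, beside 84.1% of all genes. MEI4 was at −0.30 when centred on the Sertoli genes. REC114 (−0.88) and CCDC36 (−0.995) fell short of the fold threshold when centred on germ cell genes. SPO11, which cuts the DNA, its partner TOP6BL, MEI1 and ANKRD31 had overlapping groups and were not past the threshold, with log2 (foldchange) values of 0.001, −0.37, 0.06 and −0.05.

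Of the 9 genes of synapsis and telomere attachment, 5 were called lower and 0 higher in limma, beside 20.8% and 33.4% of all genes. At an unadjusted p under 0.05 there were 6 lower and 1 higher, beside 29.7% and 53.3% of all genes. These became 8 and 0 with median-of-ratios scaling (all genes 40.5% and 37.7%), 5 and 3 centred on germ cell genes (21.4% and 66.6%), and 9 and 0 centred on Sertoli genes (89.2% and 1.56%). FKBP6, a co-chaperone of spermatocytes found on synapsed chromosome cores, had 128, 87.3 and 76.1 FPKM in C1, C2 and C3 and 412, 364 and 306 in Y1, Y2 and Y3 (log2 (foldchange) −1.91, adjusted p = 3.3e-05 from limma). SPDYA, the activator of CDK2 at telomeres, had 49.0, 24.1 and 23.0 FPKM against 103, 113 and 112 (−1.83, adjusted p = 2.2e-04 from limma). For both, C1 was the highest cattle-yak, as it was for 6 of the 8 synaptonemal complex and axis genes and for TERB2, CCDC155 and HSF2BP.

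TERB2, part of the complex that fixes telomeres to the nuclear envelope, was at −1.65 and HSF2BP, which brings BRCA2 to meiotic breaks, at −1.54. CCDC155, also named KASH5, which couples telomeres to dynein, was called at −1.02, but not without C2 (−0.90), C3 (−0.92) or Y3 (−0.99). TRIP13, the ATPase that removes HORMAD proteins from synapsed axes, had 23.7, 20.4 and 19.7 FPKM in C1, C2 and C3 and 15.8, 13.6 and 16.0 in Y1, Y2 and Y3. Its groups did not overlap, and its log2 (foldchange) of 0.46 was short of the fold threshold (adjusted p = 0.0077 from limma) and turned to −0.13 with median-of-ratios scaling. TERB1 was at −0.49 (adjusted p = 0.0079 from limma), while C14ORF39, the SIX6OS1 protein of the central element (0.16), and SUN1 (0.24) had overlapping groups and were not past the threshold. Centred on germ cell genes, TERB1 was at 0.079, TRIP13 was called higher (1.03), and HSF2BP (−0.97) and CCDC155 (−0.45) were not called, while TERB1 was called lower with median-of-ratios scaling (−1.08).

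**Figure D4:**
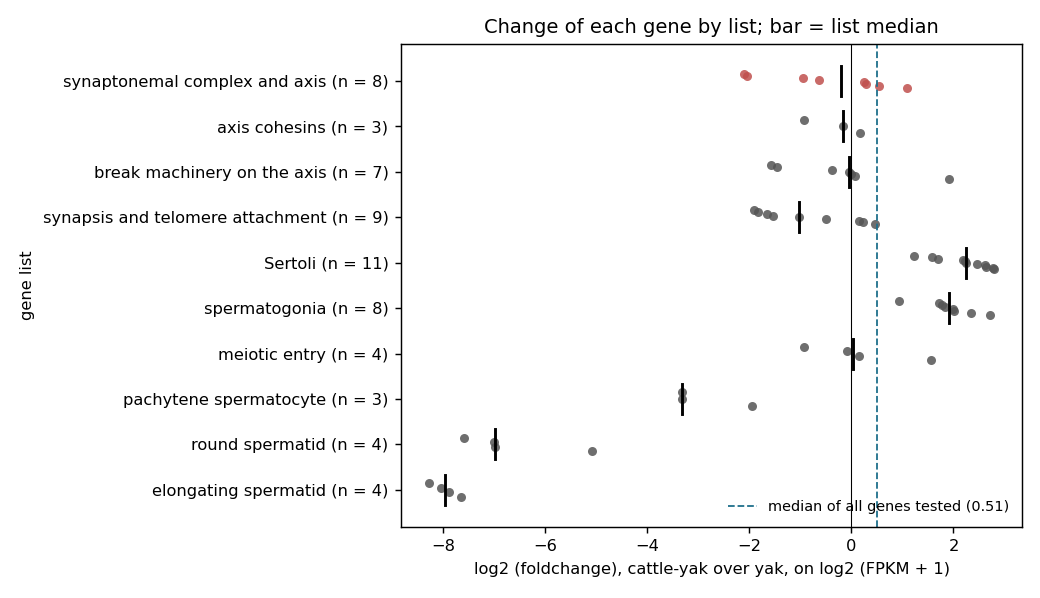
Log2 (foldchange) of each gene on log2 (FPKM + 1), by list, with a bar at the list median and a dashed line at the median of all genes tested (0.51). The median of the synaptonemal complex and axis genes (−0.20) lies between those of the spermatogonial list (1.91) and the pachytene list (−3.31). The pachytene median rests on 3 of 7 listed markers. The genes overlap both lists, with SYCE1 (−2.10) below the pachytene marker HSPA2 (−1.94) and SYCP3 (1.10) above the spermatogonial marker GFRA1 (0.94).

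Cell type markers checked the tissue label and showed which marker levels differed beside these genes, while RNA levels of whole testis do not measure cell numbers. In its tissue sections, the study described fewer spermatogonia and spermatocytes in cattle-yak tubules than in yak, and neither round spermatids nor sperm. Among the listed markers 11 of 12 Sertoli, 4 of 6 Leydig, 6 of 7 general germ cell, 8 of 8 spermatogonial, 4 of 5 meiotic entry, 3 of 7 pachytene, 4 of 6 round spermatid and 4 of 5 elongating spermatid genes were matched, and all of these were tested. The counts that follow are over the matched genes in the deposited values and stand beside 33.4% higher and 20.8% lower of all genes tested. Centring on Sertoli genes lowers every log2 (foldchange) alike, as for SYCP3 from 1.10 to −1.12. That fall is larger than the medians of the spermatogonial (1.91) and myoid (1.92) lists and the value of STRA8 (1.56). Their direction therefore depends on the scaling. Of the spermatogonial markers 7 of 8 were called higher in cattle-yak, summing to 347, 406 and 408 FPKM in C1, C2 and C3 and to 83.5, 81.4 and 98.6 in Y1, Y2 and Y3, with UCHL1 the most abundant. The 4 meiotic entry genes went both ways, with STRA8 called higher (1.56) and MEIOC, the most abundant, lower without overlap but short of the fold threshold (−0.93, adjusted p = 7.2e-04 from limma), and their sums were 104, 74.8 and 102 FPKM against 112, 113 and 105, with C2 lowest, as for 7 of the 8 genes above. The pachytene markers, all 3 called lower, summed to 148, 96.4 and 77.9 FPKM against 552, 573 and 507, with HSPA2 the most abundant.

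Among these lists the spermatid markers had the lowest medians (−6.99 for round and −7.96 for elongating spermatids), with 4 of 4 round spermatid markers called lower (27.5, 13.1 and 5.45 FPKM in sum against 1846, 1746 and 1969, ACTL7B the most abundant) and 4 of 4 elongating spermatid markers (65.8, 24.6 and 12.8 against 9349, 7939 and 9701, TNP1 the most abundant). The general germ cell genes, 3 of 6 called lower, summed to 298, 291 and 302 FPKM against 446, 462 and 459, with MAEL the most abundant. This list, which also served for centring, was mixed, since DAZL (0.97, adjusted p = 5.5e-05 from limma) and PIWIL2 (0.85, adjusted p = 3.8e-04 from limma) were higher in cattle-yak without overlap, short of the fold threshold. Sertoli markers were called higher in 11 of 11 and summed to 1497, 1733 and 1674 FPKM against 325, 238 and 284, with INHA the most abundant. Of the other somatic lists, 4 of 4 Leydig and 5 of 5 myoid markers were called higher in the deposited values (medians 2.34 and 1.92). Both lists are subject to the same fall when centred on Sertoli genes. The endothelial list was mixed, with 3 of 6 called higher and VWF (−1.85) called lower, as was the macrophage list, with 4 of 7 called higher and CD14 (−1.52) and AIF1 (−3.78) called lower. The part of these cell types in the levels of the synaptonemal complex and axis genes was not tested.

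Other genes followed SYCP1 and SYCP3 across the 6 animals. By Pearson r of log2 (FPKM + 1) over the 6 animals, which share their libraries and include the group difference, the closest to SYCP1 outside the lists were LARP4 (0.990), DTL (0.989) and SEC63 (0.976), beside TEX12 at 0.986. DTL had 24.0, 14.8 and 23.3 FPKM in C1, C2 and C3 and 17.4, 15.5 and 20.6 in Y1, Y2 and Y3, low in C2 as SYCP1 was. The closest to SYCP3 were TCF19 (0.996), FBXO47 (0.996) and COPS8 (0.994), beside HORMAD1 at 0.994. FBXO47 had 23.0, 14.5 and 25.0 FPKM in cattle-yak and 8.30, 9.11 and 10.4 in yak, so that C2 was again the lowest cattle-yak. These values are descriptions of 6 points in 2 groups and carry no test.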

How the data were processed

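Testis RNA of 3 cattle-yak and 3 yak was sequenced, 1 library per animal. Per the study's methods, reads were trimmed with Trimmomatic, and the yak genome LU_Bosgru served as the HISAT2 reference of cattle-yak as well as yak (versions not given here). The deposited values are FPKM of the authors, not scaled between libraries beyond sequencing depth. The methods give Cufflinks for FPKM and HTSeq for counts, but the values proved to be whole fragments over gene length and depth, so the tool behind them is uncertain. Whole fragments were recovered from the steps of the FPKM values for 17973 genes, within 0.03 of a whole number, and gave the depth of each library.

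Genes with a mean of at least 0.5 FPKM were fitted with limma 3.58.1 in R 4.3.3 (lmFit, eBayes with trend) on log2 (FPKM + 1), with Benjamini-Hochberg adjustment over 15042 genes. Ratios to SYCP3 were compared by exact permutation over animals in Python 3.11.15 (scipy 1.17.1, pandas 2.3.3, numpy 2.4.6, and matplotlib 3.10.9 for the figures). The genes named were the listed members, the genes of the 3 related lists, and the 3 genes closest to SYCP1 and to SYCP3 by Pearson r. Outside this rule stand the cell type markers and the annotated genes of the closing section. The related genes past the adjusted p and the called annotated genes were put through the alternatives after their values were seen. A related symbol on more than 1 gene was given by its most abundant gene. The members and lists were chosen with earlier results of these data known.

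Alternatives were a pseudocount of 0.1, no filter, a minimum mean of 5 FPKM, median-of-ratios scaling, centring on Sertoli or on general germ cell genes, voom on the recovered fragments, adjusted p alone, and leaving out each animal.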

Additional observations from a re-analysis of the deposited data

How the results depend on the processing

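HORMAD2 and SYCE1 were called lower under every alternative run. The 49 alternatives of the ratios to SYCP3 moved by less than 1 SD, and their sign follows from SYCP3 having the highest log2 (foldchange). The exact permutation p of HORMAD1 to SYCP3 was 0.2 without Y1, Y2 or Y3, where the smallest possible is 0.1. Of 363 alternative log2 (foldchange) values for 28 genes, 323 kept their direction and their call, 6 of them on the other side of the adjusted p threshold alone (SYCP1 and TEX12 without C2, and SYCP1, TEX12, SYCP2 and SYCE2 centred on germ cell genes). With median-of-ratios scaling, 0 of the 8 synaptonemal complex and axis genes were called higher in limma (0 also at an unadjusted p under 0.05), 4 were lower, and 2660 of all genes were higher. HORMAD1 (−0.071), SYCP1 (−0.36), TEX12 (−0.30) and TRIP13 (−0.13) reversed. Centred on the Sertoli genes, 0 were higher in limma (0 at an unadjusted p under 0.05) and 8 lower, and of all genes 30 were higher and 11051 lower. SYCP3 (−1.12), HORMAD1 (−1.69), SYCP1 (−1.98), TEX12 (−1.94), MEI4 (−0.30), TRIP13 (−1.76), RNF212B (−0.67), TEX11 (−0.68) and P3H4 (−0.67) reversed. Centred on the germ cell genes, 2 were higher, 7872 of all genes were higher, and TERB1 (0.079) reversed. These shifts follow from the construction of each scaling, and which scaling is right was not tested. With adjusted p alone, 2 were higher and 4 lower, and 7916 of all genes were higher.

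Leaving out each animal in turn, 0 to 1 of the 8 were called higher, 0 without C3 and 0 without Y1, where 2 were higher at an unadjusted p under 0.05 in limma and SYCP3 was at 0.91 and 0.998. Between 2 and 3 were called lower, 3 without C1, where SYCE2 was at −1.23. The cause was not tested. No paired analysis was possible because no label pairs the animals. Promoter motifs were not run, since no promoter sequences of the yak genome were at hand. Reads of both groups were mapped to the yak genome, and the effect on cattle alleles was not tested. The depth limited SYCP2L alone among the 9 genes, at 3 to 14 fragments.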

Other observations

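Genes that the deposited annotation places in synaptonemal complex terms, outside the members and the related lists, numbered 14, all tested. In limma 3 were called higher, 6 lower and 5 neither, beside 33.4% higher and 20.8% lower of all genes. SYCE1L, a paralog of SYCE1, stood at 10.9 FPKM for C1, 13.7 for C2 and 12.3 for C3, compared with 91.0 for Y1, 86.8 for Y2 and 92.2 for Y3, a log2 (foldchange) of −2.78. Unlike SYCE1, it was not highest in C1. The reverse was seen for TEX11, an X-linked gene in many mammals whose product is found on the synaptonemal complex as foci, with 135, 92.0 and 161 FPKM in C1, C2 and C3 and 38.4, 43.0 and 46.6 in Y1, Y2 and Y3. Its log2 (foldchange) was 1.55, and as for SYCP3 the lowest cattle-yak was C2 and the highest C3. With median-of-ratios scaling it was 0.94 and TEX11 was not called, and centred on the Sertoli genes it turned to −0.68.

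RNF212 and RNF212B, paralogous crossover factors, went in opposite directions. RNF212 had 3.86, 2.91 and 3.31 FPKM in C1, C2 and C3 and 13.4, 12.2 and 15.8 in Y1, Y2 and Y3, a log2 (foldchange) of −1.76, while RNF212B had 7.55, 6.16 and 7.52 FPKM and 1.64, 1.52 and 2.14, a log2 (foldchange) of 1.55. RNF212B turned to −0.67 when centred on the Sertoli genes, as did P3H4 (1.56 as deposited). The other genes called lower were PLK1 (−2.19), LIG3 (−1.77), 1 of 2 genes with the symbol MEIOC (−1.19) and BAG6 (−1.04, and −0.996 without Y2, where it was not called). Centred on germ cell genes, MEIOC (−0.62) and BAG6 (−0.46) were not called.

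A second gene with the symbol STAG3, whose identity is uncertain, had 1.71, 0.519 and 12.5 FPKM for C1, C2 and C3 and 0.662, 0.221 and 0.446 for Y1, Y2 and Y3, so that C3 stood far above the other 5 animals. These were only 7, 2, 50, 3, 1 and 2 fragments on a gene of 345 bp. The groups overlapped, and the gene was not past the threshold (limma adjusted p = 0.0866).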
